A study of Homo sapiens with 3 samples.

Results

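The 9 genes described here are PARP1 and 8 enzymes that, like it, add ADP-ribose to proteins or remove it, several of them with known roles at damaged DNA. They were taken by gene symbol from the platform annotation: PARP1, PARP2, PARP3, PARP4, PARP6 and PARP16, which add the group, and PARG, ADPRS (also called ADPRHL2 or ARH3) and MACROD1, which remove it. They are 9 of the 20044 genes named on the array and have 13 of its 47309 probes, and PARP2, PARP3, PARP6 and PARG have 2 probes each. The study depleted PARP1 in H2030-BrM3, a subline of the human lung adenocarcinoma cells H2030 that was selected for metastasis to the brain. 1 array held RNA from cells with the hairpin labelled PARP1 targeting shRNA-1 (hairpin 1), 1 from cells with PARP1 targeting shRNA-2 (hairpin 2) and 1 from cells with a non-targeting shRNA (the control). All cells carried a hairpin, and the series' title asks for target genes of PARP1. The hairpin sequences, the way they were delivered and whether the cells were clones or pools were not stated in the sources used here.

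ADP-ribosylation starts from NAD+. At a DNA break PARP1 binds the broken end and, with the much less abundant PARP2, builds chains of ADP-ribose on itself, on histones and on repair proteins, and the chains recruit XRCC1 and its partners. PARP3 adds single ADP-ribose units and is tied to the joining of double-strand breaks. PARP4 is the PARP of the vault, a large ribonucleoprotein particle. PARP6 and PARP16 add single units too, and PARP16 sits in the membrane of the endoplasmic reticulum, where it takes part in the unfolded protein response. PARG cuts the chains, ADPRS removes the last unit from serine, and MACROD1 removes single units from acidic residues.

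The start regions of the PARP1 and PARP2 genes are shown because these enzymes share the chain-building reaction and their transcripts showed unlike values below. PARP1 is the gene that both hairpins target by their labels, and a link between these regions and the values was not tested. Both are the 250 bases before the gene's start, from RefSeq on GRCh38.p14, written 5′ to 3′ on the gene's strand. Capitals mark the GC box, searched as GGGCGG on both strands (CCGCCC on the strand printed), the core letters bound by SP1 family factors. PARP1 lies on the minus strand at chr1:226408094-226408343 and PARP2 on the plus strand at chr14:20343385-20343634.
PARP1: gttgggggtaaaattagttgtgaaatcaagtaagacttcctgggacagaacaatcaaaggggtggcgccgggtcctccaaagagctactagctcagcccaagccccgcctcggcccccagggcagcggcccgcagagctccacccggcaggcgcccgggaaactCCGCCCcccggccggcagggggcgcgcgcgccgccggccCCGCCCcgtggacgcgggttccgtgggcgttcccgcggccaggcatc
PARP2: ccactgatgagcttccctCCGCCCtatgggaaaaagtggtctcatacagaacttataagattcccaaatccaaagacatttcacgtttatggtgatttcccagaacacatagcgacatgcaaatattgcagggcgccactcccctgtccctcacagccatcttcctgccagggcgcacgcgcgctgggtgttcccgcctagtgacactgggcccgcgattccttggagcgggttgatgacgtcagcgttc
The PARP1 window held 2 GC boxes and was 70.4% G or C, and the PARP2 window held 1 and was 54.4% G or C. Of the 8 members with a window in the table, 6 held at least 1 GC box, PARP16 the most with 3, while PARP3 and PARG had none. Over 27305 windows of all genes 42.3% held the box and the median G and C content was 58.0%. None of the 8 held TATAAA on either strand, which 11.1% of all windows did. These matches are letters in a window. Where the array's probes and the hairpins bind was not analysed here.

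Signal medians were 152.2 with hairpin 1, 161.7 with hairpin 2 and 153.6 in the control, in the arbitrary intensity units of the deposited non-normalized table. A probe was counted as above background where its deposited detection p was under 0.01, which held for between 16350 and 17420 probes on an array. All 3 arrays lay on 1 BeadChip. Of the epithelial markers, EPCAM, KRT8 and KRT18 were above background on all 3 arrays and CDH1, KRT7 and KRT19 on none. None of 4 lung markers (NKX2-1, NAPSA, SFTPB, SFTPC) was above background on any array, while the mesenchymal markers VIM and CDH2 were above it on all 3 and FN1 and ZEB1 on none. No leukocyte or endothelial marker was above background, and of 3 fibroblast markers only COL1A1 was, with signals of 178, 192 and 176 (hairpin 1, hairpin 2, control) where the lowest signals above background were 176, 182 and 174. With 1 control array and 1 array for each hairpin, the spread that could be measured is the gap between the hairpins. The labels name 2 different hairpins and no replicate cultures. That gap can hold technical spread, differences between cultures and differences between the hairpins, which cannot be told apart. The p-values rest on it, moderated by the spread of the other genes.

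PARP1 was the member with the large difference. Its only probe, ILMN_1686871, gave deposited signals of 1312 with hairpin 1 and 765.8 with hairpin 2, against 4365 in the control. Both hairpin arrays lay far below the control, hairpin 2 below hairpin 1, and all 3 signals were well above background. After background correction and quantile normalization (neqc, log2 scale) the values were 10.29 and 9.16 with the hairpins and 12.11 in the control. The remaining signal was 28.3% of the control with hairpin 1 and 12.9% with hairpin 2, so PARP1 was 2.19-fold lower with hairpin 2 than with hairpin 1. In the deposited signals, from which no background is subtracted, the percentages were 30.1% and 17.5%. On the authors' normalized table they were 30.3% and 15.8%.

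**Figure D1:**
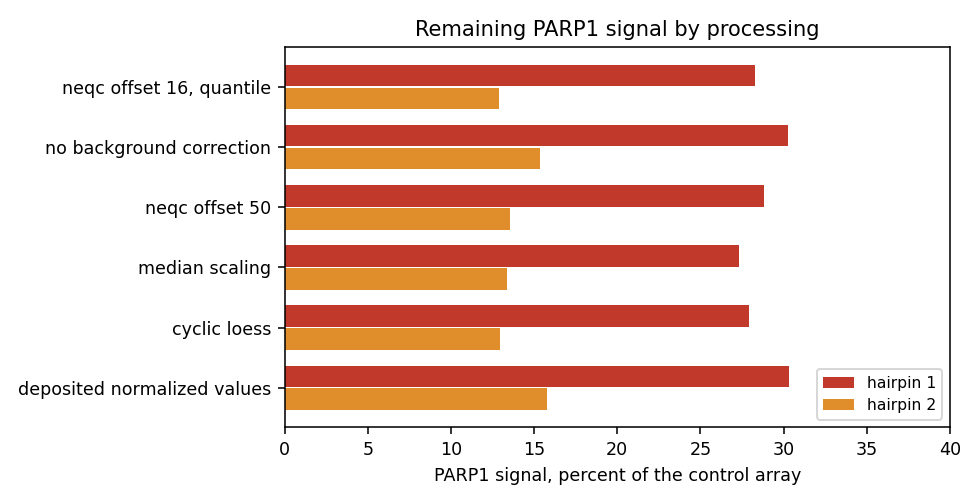
PARP1 signal with hairpin 1 (red) and hairpin 2 (orange) as a percentage of the control array, 1 array each, under 6 ways of processing the same probe. The bars run from 27.3% to 30.3% with hairpin 1 and from 12.9% to 15.8% with hairpin 2, and hairpin 2 is the lower in each.

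Averaged over the hairpins, PARP1 had a log2 change of −2.39 ± 0.36 (limma's moderated SE, 2 arrays against 1), with a 95% interval from −3.21 to −1.57. The unadjusted limma p was 0.000133 and the adjusted p over all 10692 genes was 0.713, so the targeted gene itself did not pass 0.05. The difference between the hairpins enters that test as noise, and for PARP1 it was −1.13 on the log2 scale (hairpin 2 minus hairpin 1). Adjusted p values ranged from 5.85e-23 to 0.994 over 10 settings while the log2 change stayed between −2.40 and −2.19. By size, PARP1 held the lowest log2 ratio of all 10692 genes with hairpin 1 and again with hairpin 2.

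Among the other enzymes that add ADP-ribose, all measured values lay close to the control. PARP2, the partner of PARP1, gave signals of 2315 with hairpin 1 and 2522 with hairpin 2, against 2149 in the control, by its brightest probe (ILMN_1757995). Its normalized log2 values were 11.17 and 11.09 with the hairpins and 11.05 in the control, which are log2 ratios of 0.12 and 0.04. The other PARP2 probe, ILMN_2354237, gave log2 ratios of 0.08 and −0.04, so the control lay between the hairpins by that probe. The mean log2 change of PARP2 was 0.08 ± 0.11 (SE), with a 95% interval from −0.18 to 0.34 and a limma adjusted p of 0.994. That interval, not adjusted for the number of genes, reaches from 88.1% to 127% of the control. A change of PARP2 within it could not be told from none with 3 arrays. A larger one might also have missed the adjusted threshold, as PARP1 did.

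PARP3 gave signals of 1298 with hairpin 1 and 1537 with hairpin 2, against 1237 in the control, by probe ILMN_2397954. The normalized values were 10.27 and 10.31 with the hairpins and 10.20 in the control, a mean log2 change of 0.09 ± 0.12 (SE; limma adjusted p = 0.994). Its dimmer probe, ILMN_1796682, gave log2 ratios of −0.07 with hairpin 1 and 0.14 with hairpin 2. As for PARP2, the hairpins lay on both sides of the control by one probe and above it by the other. PARP4, the vault enzyme, had 1 probe, with signals of 2026 and 2300 with the hairpins and 2097 in the control. Its normalized values of 10.97 and 10.95 with the hairpins and 11.01 in the control gave a mean log2 change of −0.05 ± 0.11 (SE; limma adjusted p = 0.994). Both hairpins lay below the control by less than that standard error.

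PARP16, the enzyme of the endoplasmic reticulum, was a dim transcript. It had the largest log2 change after PARP1 when each gene was read from its brightest probe. The dimmer probe of PARG, described below, gave a larger mean log2 ratio (0.31). Its probe gave signals of 206.8 with hairpin 1 and 222.7 with hairpin 2, against 216.2 in the control, where the lowest signals above background lay between 174 and 182. Before normalization the control thus lay between the hairpins. After normalization both hairpins lay below it, at 6.42 and 6.35 against 6.57 on the log2 scale, or log2 ratios of −0.15 and −0.21. The mean log2 change was −0.18 ± 0.23 (SE) with a 95% interval from −0.71 to 0.35 (limma adjusted p = 0.994). It was −0.07 on the deposited normalized values, and 14.1% of all genes tested had a lower log2 change.

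PARP6 could not be compared, because neither of its probes was above background on any array. Probe ILMN_1813620 gave signals of 163.0 and 172.1 with the hairpins and 174.1 in the control, with detection p values of 0.0325, 0.0351 and 0.0104. The control value lay just outside the threshold. Among the members above background, the value nearest to the threshold on the other side was PARG probe ILMN_2410428 in the control, with a detection p of 0.00519. The other PARP6 probe, ILMN_1662256, gave signals of 148.5 and 131.9 with the hairpins and 134.9 in the control, with detection p values from 0.203 to 0.957.

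**Figure D2:**
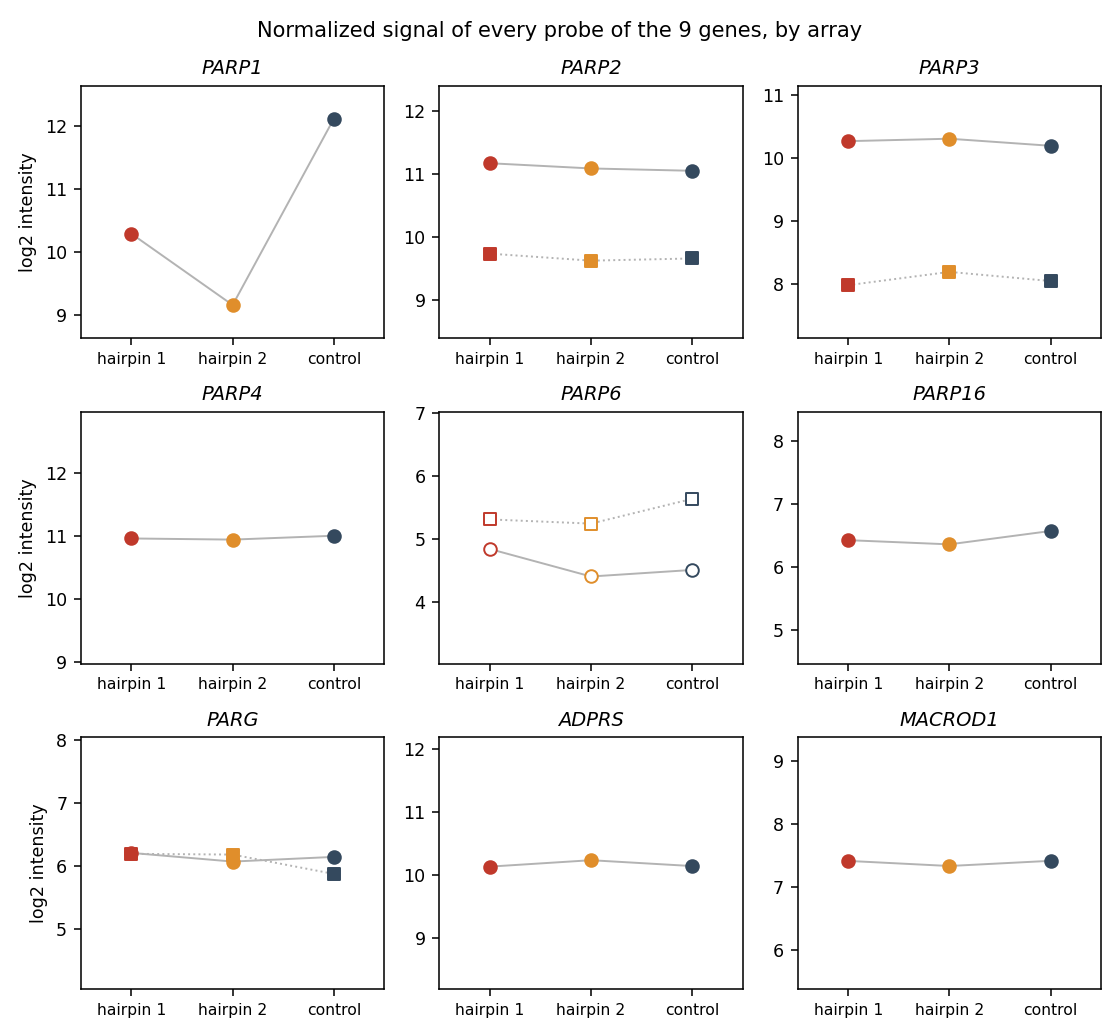
Normalized log2 intensity of all 13 probes on the hairpin 1 (red), hairpin 2 (orange) and control (dark blue) arrays, 1 panel a gene, each spanning the same 4 log2 units. Circles and squares are different probes of a gene, and open symbols have a detection p of at least 0.01. PARP1 lies lower on both hairpin arrays than on the control, PARP6 has open symbols throughout and the other panels are nearly flat.

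The enzymes that remove ADP-ribose also lay near the control. ADPRS, which frees serine residues of their last ADP-ribose, gave signals of 1187 with hairpin 1 and 1462 with hairpin 2, against 1187 in the control. Its normalized values were 10.13 and 10.23 with the hairpins and 10.14 in the control, so the control lay between the hairpins. The mean log2 change of ADPRS was 0.04 ± 0.13 (SE; limma adjusted p = 0.994). MACROD1 gave signals of 288.1 and 312.1 with the hairpins and 287.6 in the control. Its normalized values were 7.42 and 7.34 with the hairpins and 7.42 in the control, a mean log2 change of −0.04 ± 0.17 (SE; limma adjusted p = 0.997), which was 0.02 with median scaling.

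The 2 probes of PARG, the main chain-cutting enzyme, differed from each other. The slightly brighter one, ILMN_3251521, which represented the gene, gave signals of 195.5 with hairpin 1 and 206.0 with hairpin 2, against 194.1 in the control, and log2 ratios of 0.06 and −0.07. The other one, ILMN_2410428, gave 194.8 and 212.0 with the hairpins and 182.8 in the control, and log2 ratios of 0.32 and 0.31. The first placed the control between the hairpins and the second placed both hairpins above it. Both probes were annotated with the same transcript and both were only just above background, with detection p values from 0.00260 to 0.00519. The mean log2 change of PARG was −0.01 ± 0.27 (SE; limma adjusted p = 0.999), but 0.15 with the mean of both probes and 0.03 with median scaling. RefSeq also lists PARGP1, a transcribed pseudogene of PARG, and whether a probe also binds its RNA was not tested.

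**Figure D3:**
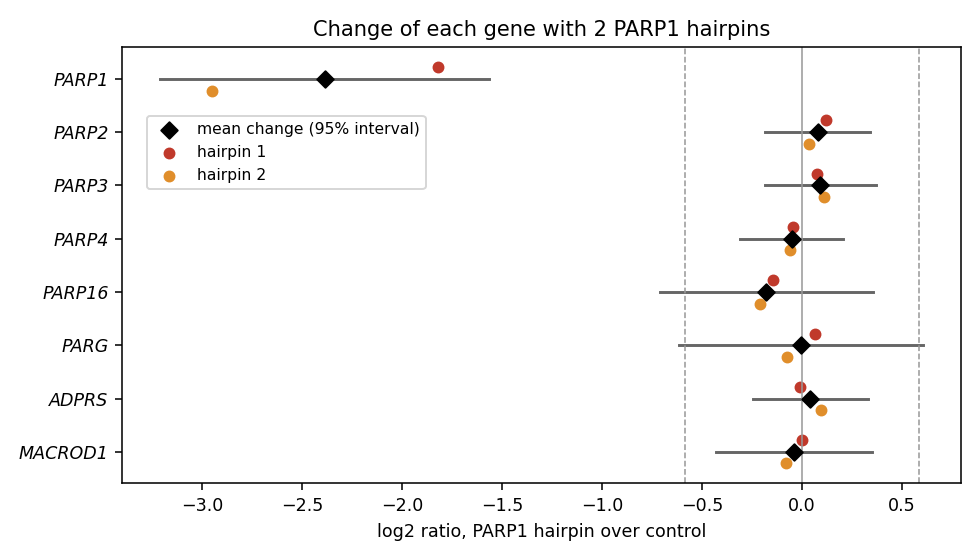
Log2 ratio to the control array with hairpin 1 (red) and hairpin 2 (orange), and their mean with limma's 95% interval (black), for the 8 genes above background. Dashed lines mark 1.5-fold. PARP1 at −2.39 lies alone on the left, and the other 7 means lie between −0.18 and 0.09.

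PARP1 was the 1 member past a threshold of size or of unadjusted p. Of the 9 members 8 passed the detection filter, which asked for a probe above background on any 1 array, and each of the 8 was above background on all 3 arrays, as were 90.7% of all genes tested. With limma 0 members passed an adjusted p of 0.05, as did 0 of all 10692 genes (0%). At an unadjusted limma p under 0.05 there was 1 member, PARP1, against 375 genes in all (3.51%). By size, PARP1 alone of the 8 was 1.5-fold or more away from the control, on the same side with each hairpin. That rule was met by 104 genes in all (0.973%), of which 65 (0.608%) were lower like PARP1. Among the 9697 genes above background on all 3 arrays, as the 8 members were, 21 met it. Of the other 7 members 3 lay below the control with both hairpins (PARP4, PARP16, MACROD1), where 31.4% of all genes did, and 2 lay above it with both (PARP2, PARP3), where 33.8% did. With median scaling 2 lay below it and 3 above it, and with cyclic loess 2 lay on either side. The median log2 change was −0.01 over these 7 members and 0.00 over all genes tested. The median absolute log2 change was 0.05 over the 7 and 0.11 over all genes, which include genes above background on fewer than 3 arrays.

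The precision differed between these genes. Moderated standard errors were 0.36 for PARP1, where the gap between the hairpins was widest, and ran from 0.11 for PARP2 and PARP4 to 0.27 for PARG among the other 7, with a median of 0.15 over all genes tested. The 95% intervals of PARP2, PARP3, PARP4, ADPRS and MACROD1 lay within 1.5-fold of the control on both sides. Those of PARP16 and PARG crossed the 1.5-fold line, PARP16 downward (61.0% of the control at its low end) and PARG both ways (65.2% and 152%).

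**Figure D4:**
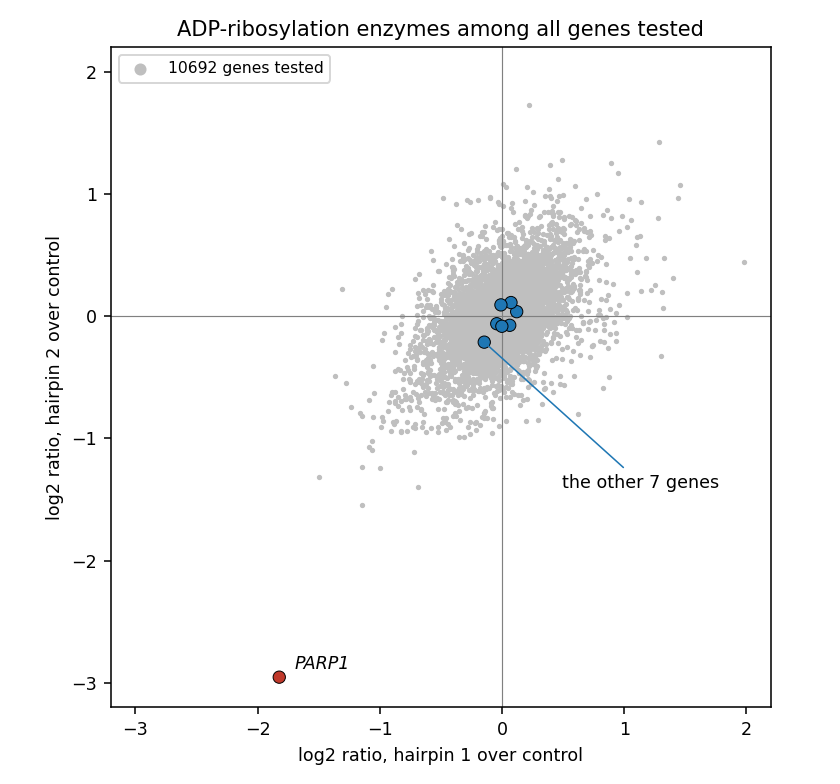
Log2 ratio to the control with hairpin 1 (horizontal) and hairpin 2 (vertical) for the 10692 genes tested (grey), with PARP1 in red and the other 7 members above background in blue. Both axes use the same control array. PARP1 lies apart at −1.82 and −2.95, and the 7 others lie inside the grey cloud between −0.21 and 0.12 on either axis.

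The hairpins left different amounts of PARP1, and no other member above background lay 1.5-fold apart between them. Apart from PARP1, the log2 difference of hairpin 2 minus hairpin 1 was largest in size for PARG (−0.14) and ADPRS (0.10) and smallest for PARP4 (−0.02). A difference of at least 1.5-fold with hairpin 2 the lower was seen for PARP1 and for 1.65% of all genes. Each hairpin had 1 array, so this difference was not tested.

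The genes around these enzymes were taken as a list of 23 readers, cofactors, repair partners and further hydrolases of ADP-ribose. Probes were named for 20 of them and 16 passed the filter, 15 of these on all 3 arrays. In those 15 the mean log2 change lay between −0.31 and 0.19. With limma 0 of the 16 passed an adjusted p of 0.05 (0% of all genes) and 1 had an unadjusted p under 0.05 (3.51% of all genes). None differed 1.5-fold from the control with both hairpins, against the 0.973% of all genes. Of the 16, 7 lay above the control with both hairpins, where 33.8% of all genes did, and 3 below, where 31.4% did. Among the 7 was NUDT16, which passed the filter only through the hairpin arrays, where it was higher. Of the 15 above background on all 3 arrays, 6 lay above and 3 below. The median log2 ratio of the 16 was 0.09 with hairpin 1 and 0.00 with hairpin 2, against 0.01 and 0.00 over all genes. For the 15 it was 0.08 and −0.01.

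Of those above background on all 3 arrays, the highest were TDP1, TIMELESS and HPF1. TDP1, which frees DNA ends from trapped topoisomerase 1, had normalized log2 values of 9.59 and 9.73 with the hairpins and 9.47 in the control. All 3 of its probes lay above the control with both hairpins, with log2 ratios from 0.09 to 0.38. TIMELESS, a replication fork protein that binds PARP1, had log2 ratios of 0.17 and 0.16. HPF1, the cofactor that directs PARP1 and PARP2 to serine, had 0.13 and 0.12. All 3 genes had a limma adjusted p of 0.994.

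The lowest were NUDT9, TIPIN and NMNAT1. NUDT9, a hydrolase of free ADP-ribose, had normalized log2 values of 9.73 and 9.87 with the hairpins and 10.10 in the control by probe ILMN_1680239, a mean log2 change of −0.31 ± 0.13 (SE). Its unadjusted limma p was 0.0476 and its adjusted p 0.994. Another NUDT9 probe, ILMN_2401761, annotated with the same transcript and above background throughout, gave log2 ratios of 0.28 and 0.12, on the other side of the control. TIPIN, the partner of TIMELESS, had log2 ratios of −0.18 and −0.18. NMNAT1, which makes NAD+ in the nucleus, had −0.06 and −0.20, and XRCC1, the scaffold that binds the chains, had 0.28 and −0.07.

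The genes whose log2 ratios came nearest to those of PARP1 were still far from it. Likeness was the Euclidean distance between the pairs of log2 ratios, over 2 hairpins and among genes above background on all 3 arrays, and no gene came within a distance of 1.56. The nearest was CTBP2, a transcriptional corepressor, at −1.15 and −1.55. Next came CLDN7 (−1.14 and −0.81), SMIM10L2B (−0.82 and −0.94), KIF26A (−0.52 and −0.95) and C15orf40 (−0.75 and −0.77). Of these 5, CTBP2 and KIF26A had a log2 ratio at least 0.40 lower with hairpin 2 than with hairpin 1. Their limma adjusted p was 0.713 for CTBP2 and 0.994 for the other 4.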

How the data were processed

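Expression was measured on 3 Illumina HumanHT-12 arrays. The authors deposited a bead-averaged probe intensity on a linear scale, made with GenomeStudio per the submitters' processing notes, with no background subtraction or equalisation visible in the values. A detection p-value was deposited beside each intensity, per the file headers. The other table the authors deposited holds intensity after normalization, as its sorted columns match between arrays to within 0.706, which is how quantile normalization was inferred. The version and settings of GenomeStudio were not given in the sources used here.

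Background correction and quantile normalization used neqc of limma 3.58.1 in R 4.3.3 (offset 16, log2 scale). Probes with 1 gene symbol in the platform annotation (30106) were kept where the detection p was below 0.01 on 1 array or more. 30067 of these were found by gene ID in the RefSeq gene table of GRCh38.p14. Each gene was read from its brightest probe by mean log2 intensity. Hairpin arrays were compared with the control by limma (lmFit, trended eBayes), and p-values were adjusted over 10692 genes by Benjamini-Hochberg. The fit has 1 residual degree of freedom and a median of 7.34 prior ones, and assumes that the lone control varies like the hairpin arrays. SE is limma's moderated one. The fit was also run on simulated data in which all genes and arrays had the same spread. That run checked the size and sign of added changes and could not check the assumption on the control.

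The members, gene lists, tests and naming rule were chosen with earlier results of these data known. The rule named all members, of the pathway genes the 3 highest and 3 lowest above background on all arrays and any past a threshold, and the 5 genes nearest to PARP1. XRCC1 and all genes in the closing section were named after their values were seen. Of the listed pathway genes, 3 with no named probe were not analysed here. The number of arrays limits the precision. Alternatives covered the background correction, normalization, filter, probe choice, variance prior and each hairpin alone.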

Additional observations from a re-analysis of the deposited data

How the results depend on the processing

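PARP1 kept its direction under all 11 alternatives tried for it, and its log2 change was −1.82 with hairpin 1 alone and −2.95 with hairpin 2 alone. It passed an adjusted limma p of 0.05 with median scaling (log2 change −2.39, adjusted p = 5.85e-23, with 111 prior degrees of freedom) and with a gene's probes averaged (−2.39, 0.00795, with 13.2), where the main setting had 7.34 prior degrees of freedom. With more prior degrees of freedom a gene's own gap between the hairpins weighs less. The number of genes past that threshold was 2 with median scaling (PARP1 and CTBP2), 1 with averaged probes (PARP1) and 0 in the other 7 alternatives with a test. Genes 1.5-fold from the control with both hairpins numbered 104 in the main setting, 2 with uncorrected background and 2 on the authors' normalized table (PARP1 and CTBP2 both times), 11 with an offset of 50, 21 with probes above background on all arrays and 160 with no filter. With 1 hairpin alone they numbered 335 and 382. PARP1 was the 1 member past 1.5-fold in each setting. Among pathway genes 1 passed 1.5-fold with no filter, APLF, whose probe was not above background on any array. The log2 change of MACROD1 turned to 0.0201 and that of PARG to 0.0319 with median scaling, and that of PARG to 0.15 with its probes averaged. Each of these values was smaller than its standard error, and the other members kept their direction in every alternative that used both hairpins. No paired analysis was possible because there was 1 control array. PARP6 and other dim transcripts are limited by signal over background.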

Other observations

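MACROH2A1 encodes macroH2A1, a histone variant with a domain that, in one splice form, binds ADP-ribose. Its probes, looked at after their values were seen, differed in the direction they gave. The brightest, ILMN_2373495, gave signals of 13957 with hairpin 1 and 12585 with hairpin 2, against 13923 in the control, and log2 ratios of 0.01 and −0.25. Probe ILMN_1746171 gave signals of 2478 and 2893 with the hairpins and 2054 in the control, and log2 ratios of 0.31 and 0.33. Probe ILMN_1674034, also above background throughout and annotated with the same transcript as ILMN_1746171, gave log2 ratios of 0.09 and 0.04. The annotation assigns the brightest probe to another transcript of the gene than these 2. Probe ILMN_2275437, annotated with the same transcript as the brightest, was not above background on any array. Its signals were 141.5 with hairpin 1, 143.6 with hairpin 2 and 150.3 in the control. The differences between probes were not tested.

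NUDT16, a hydrolase of ADP-ribose ends, gave signals of 187.3 with hairpin 1 and 192.7 with hairpin 2, against 169.3 in the control. It was above background on both hairpin arrays but not in the control, so it passed the detection filter only through the arrays where it was higher, and its difference is a bound. On the normalized log2 scale the mean of the 2 hairpin arrays was at least 1.21-fold above the control. The bound sets that mean (5.90) against the lowest normalized value above background on the control array (5.63). It does not hold for each hairpin, as hairpin 2 alone was at 5.78, and it depends on the background correction so near the floor. The limma adjusted p of NUDT16 was 0.994.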
